A study of Rattus norvegicus with 6 samples.

Results

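The miRNAs miR-320, miR-484, miR-877, and miR-1224 are known for reaching Dicer without the enzyme Drosha. They were chosen by name from the rat entries of a miRNA count table, whatever their values, and 5 of the 910 rows matched: rno-miR-320-3p, rno-miR-320-5p, rno-miR-484, rno-miR-877, and rno-miR-1224. The table covers the capsular membrane of 6 lenses from Sprague Dawley rat pups, labelled as lens capsules, with 1 lens from each of 3 control rats and 3 Na2SeO3 rats. The Na2SeO3 group received sodium selenite under the skin of the nape at 20 μmol/kg body weight on days 3, 5, and 7, which clouds the lens in this model. The control group received saline in the same way, and the pups were described as 8 days old when the model was set up, with lenses taken on day 15 of the experiment. Whether the injection days count from birth or from the start of the experiment is not stated in the sources used here, so the age at injection is uncertain. Selenite reaches the whole animal, and the capsular membrane holds lens epithelium together with whatever adheres to it, so the libraries are mixtures of cells.

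In the canonical pathway, the Microprocessor, made of Drosha and DGCR8, cuts a hairpin out of a long primary transcript, and Dicer then trims the hairpin to a mature miRNA. A few hairpins are made in another way. For miR-320 and miR-484 the hairpin is the start of a short capped transcript, so that no Drosha cut is needed, and the strand away from the cap is the one kept. For miR-877 and miR-1224 the hairpin is a short intron, called a mirtron, which is freed by splicing. Because these miRNAs need Dicer and Argonaute but not the Microprocessor, they serve as a reference when the making of canonical miRNAs is in question. The comparison here asks whether they moved differently from canonical miRNAs of similar abundance in the Na2SeO3 group.

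The sequences are shown first, because the ends of a hairpin and the place of the mature miRNA in it can carry marks of its route. RefSeq entries of assembly GRCr8 were matched by name for 3 of the 5 rows. The mature miRNAs are given below 5′ to 3′, with the seed, bases 2 to 8, in capitals.
rno-miR-484: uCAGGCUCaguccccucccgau
rno-miR-877: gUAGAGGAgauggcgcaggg
rno-miR-1224: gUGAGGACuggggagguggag
The 3 seeds are all different. No other rat mature miRNA in the RefSeq set carried the seed of miR-877 or miR-1224, whereas that of miR-484 is shared with rno-miR-344a-5p and rno-miR-344-5p, and rno-miR-344a-5p had 0 counts in all 6 libraries. The 3 miRNAs are 22, 20, and 21 bases long and rich in G and C, at 63.6%, 65.0%, and 66.7%, in the order listed. The median GC content of the tested rat miRNAs with a sequence (296 of 326) was 45.5%, and 14 of them lay above miR-484.

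The hairpins of the 2 mirtrons are printed whole with their first and last 2 bases in capitals, since an intron begins with GU and ends with AG.
Mir877, on the plus strand of GRCr8: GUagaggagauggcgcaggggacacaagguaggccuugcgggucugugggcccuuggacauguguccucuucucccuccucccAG
Mir1224, on the minus strand of GRCr8: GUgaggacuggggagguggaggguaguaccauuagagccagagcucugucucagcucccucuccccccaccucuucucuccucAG
Both hairpins are 85 bases long and begin with the mature miRNA at base 1. Among the 419 rat hairpins of the RefSeq set, 37 began with GU, 27 ended with AG, and 4 (0.955%) did both, namely Mir877, Mir1224, Mir678, and Mir3595. A mature miRNA began at base 1 in 6 (1.43%) of the hairpins, and Mir877 and Mir1224 were the 2 of the 419 that had all 3 features. Not every listed mirtron has them, since the entry of Mir702, treated below, begins with GU but ends with GC. Neither rno-miR-678 nor rno-miR-3595 was counted in any library. Mir877 lies within Abcf1, which encodes a protein of translation initiation, and Mir1224 lies within Vwa5b2 on the same strand.

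The capped hairpin of miR-484 looks different. It is shown with the mature miRNA in capitals, which lies near the 3′ end, away from the cap.
Mir484, on the minus strand of GRCr8: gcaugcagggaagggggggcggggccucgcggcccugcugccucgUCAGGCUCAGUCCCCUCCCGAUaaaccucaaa
The mature miRNA covers bases 46 to 67 of the 77 bases. Mir484 overlaps no other gene in GRCr8 and has Nde1 and Marf1 as its neighbours. The gene of miR-320, Mir320a, also overlaps no other gene and lies beside Polr3d, which encodes a subunit of RNA polymerase III. Folded with RNAfold, the hairpins of Mir484, Mir877, and Mir1224 had minimum free energies of -36.7, -35.9, and -41.2 kcal/mol. Per base, 26.5%, 50.8%, and 23.2% of the 419 rat hairpins were more stable than they were.

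The libraries summed to 1806596 to 2829903 counts in the control group and 663096 to 968151 in the Na2SeO3 group. The paper lists raw reads of similar size for both groups, so a smaller part of them was counted in the Na2SeO3 libraries. The cause of this was not tested, and it cannot be told apart from the treatment. Levels below are CPM after TMM scaling, which assumes that most miRNAs keep their level between libraries, and 1 read was worth 0.345 to 0.647 CPM in the control libraries and 0.907 to 1.455 CPM in the Na2SeO3 libraries. The lens markers miR-184, miR-204-5p, and miR-211-5p were all present, at a summed 93300 to 108000 CPM in the control libraries and 47900 to 60100 in the Na2SeO3 libraries, with miR-184 called lower (log2 fold change -1.13). The 4 muscle miRNAs summed to 6370 to 8140 and 12800 to 14200 CPM, the 4 neural and glial ones to 28100 to 35400 and 34700 to 44700, the 3 erythroid ones to 246 to 300.0 and 393 to 511, the 3 leukocyte ones to 66.0 to 86.8 and 43.6 to 78.0, and the 5 sensory and epithelial ones to 147000 to 199000 and 188000 to 197000. Each list had at least 1 count for every marker. In edgeR, the other lists had miR-206-3p of muscle (log2 fold change 1.75), miR-219a-2-3p of the neural and glial list (4.26), and miR-486 of the erythroid list (1.12) called higher. miR-200b-3p of the sensory and epithelial list (-1.45) was called lower. The rest of these lists was not called and did not all go the same way. The other muscle miRNAs were at 0.68 to 0.98. In the neural and glial list, miR-338-3p was at -0.93, miR-124-3p at -0.12, and miR-9a-5p at 0.43. In the erythroid list, miR-451-5p was at 0.06 and miR-144-3p was not tested. In the sensory and epithelial list, miR-205 was at -0.93, miR-96-5p at -0.02, and miR-182 and miR-183-5p at 0.21. Whether cell makeup differed was not tested, nor was its part in the values below. In such tissue fewer cells of a type cannot be told apart from less miRNA per cell.

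None of the 5 Drosha-independent rows was called different between the groups. A miRNA was called where edgeR's quasi-likelihood test gave an adjusted p under 0.05 and the log2 fold change exceeded 1 in size, which 56 of the 341 miRNAs tested reached (16.4%). Of the 5 rows, 3 passed the filter on low counts, miR-320-3p, miR-484, and miR-1224, and 0 of the 3 were called. The adjusted p-values of these 3 were 0.81, 0.43, and 0.84 (edgeR), and their unadjusted p-values were 0.72, 0.28, and 0.77. DESeq2 called 0 of the 3 as well. Non-overlapping groups were found in 46.3% of all miRNAs tested and in 0 of these 3. The 2 rows below the filter, miR-877 and miR-320-5p, held at most 9 reads in any library, and without a filter neither was called (edgeR, adjusted p = 0.47 and 0.73).

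miR-320-3p was by far the most abundant of the 5. It is widely expressed across tissues, and its precursor is a textbook case of the capped route. It was counted 747, 588, and 419 times in the control libraries, numbered 1 to 3 in that order here and below, and 199, 275, and 238 times in the Na2SeO3 libraries. After scaling these were 258, 304, and 271 CPM in the control group and 289.5, 249, and 261.5 CPM in the Na2SeO3 group. The highest library was a control and the lowest a Na2SeO3 library, with the others interleaved. The group means of 277.5 ± 23.7 and 266.8 ± 20.6 CPM (SD, n = 3 each) differed by less than the spread between replicates. edgeR put the log2 fold change at -0.06 with a standard error of 0.16 (adjusted p = 0.81), and its sign turned, to 0.13 with library size alone as the scale and to 0.015 without control library 2. The 95% interval of the difference ran from -0.40 to 0.28 on the log2 scale, which is 0.759 to 1.22 as a fold, so that a 2-fold change lies outside it in either direction.

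The place of miR-320-3p within each library was steady too. In rank order it stood above 65.5% to 67.6% of the 326 rat miRNAs tested in the control libraries and above 65.8% to 67.0% in the Na2SeO3 libraries. A rank does not depend on how a library is scaled. Only 30 of the 326 had a smaller absolute log2 fold change, and 32 had a smaller standard error. It ranked 108 by mean level, directly below rno-miR-323-3p, which was called higher (log2 fold change 1.07, with an adjusted p of 4.34e-04 in edgeR), and directly above rno-miR-450b-5p, whose log2 fold change of 0.85 was short of the threshold.

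**Figure D1:**
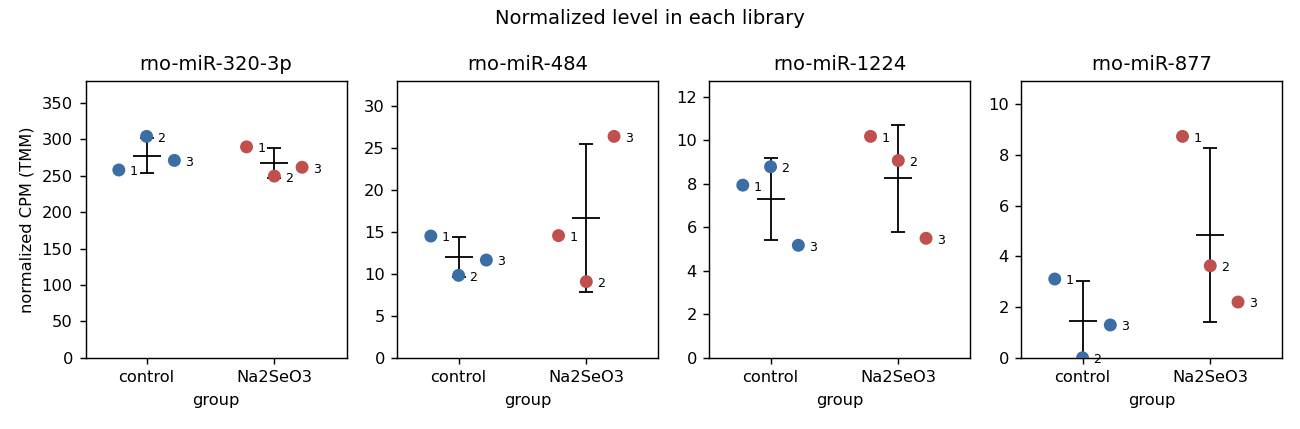
Normalized level (CPM after TMM scaling, linear axes from 0) of 4 Drosha-independent miRNAs in 3 control (blue) and 3 Na2SeO3 (red) libraries; points are libraries with their replicate number, and bars are the mean and SD (n = 3). miR-320-3p lies between 249 and 304 CPM in all 6 libraries, and the groups overlap in every panel.

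Almost all reads of miR-320 came from the 3p arm, the strand away from the cap. The 5p arm was counted 2, 1, and 0 times in the control libraries and 0, 3, and 0 times in the Na2SeO3 libraries. The 3p arm therefore made up 99.83% of both arms in the control group (95% exact binomial interval 99.5 to 99.96) and 99.58% in the Na2SeO3 group (98.78 to 99.91), with intervals that cover counting error only and overlap. A strong bias was common among rat miRNAs. Of the 186 miRNA names with both arms in the table and at least 100 reads in all, the median share of the more counted arm was 98.9%, 91 had 99% or more, and 51 (27.4%) had a higher share than miR-320. The 3p bias of miR-320 was thus within the range of the other rat miRNAs.

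**Figure D2:**
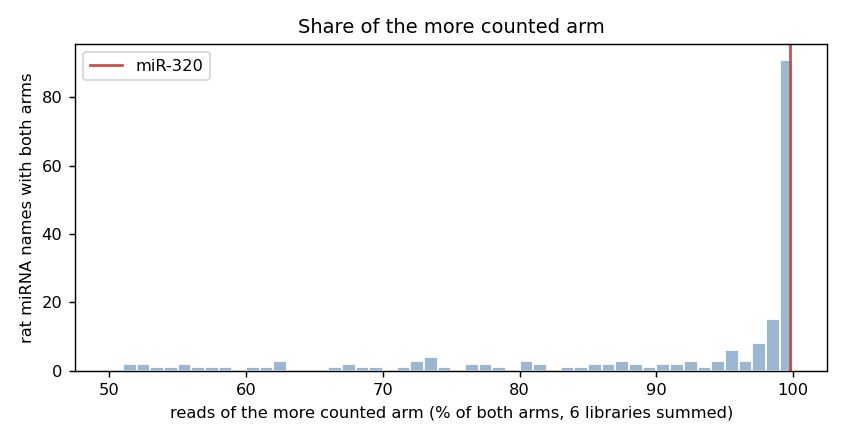
Share of the more counted arm in the reads of both arms (percent, x axis, 6 libraries summed) for the 186 rat miRNA names with at least 100 reads, as the number of names per bin of 1 percentage point (y axis). miR-320 (line, 99.76%) falls in the tallest bin, which holds 91 names.

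miR-484, the other capped-hairpin miRNA, was far less abundant. It was counted 42, 19, and 18 times in the control libraries and 10, 10, and 24 times in the Na2SeO3 libraries, or 14.5, 9.82, and 11.6 CPM and 14.6, 9.07, and 26.4 CPM. The first and second Na2SeO3 libraries fell just outside the control range, one on either side, and the third stood well above all others. The group means were 11.98 ± 2.36 and 16.7 ± 8.84 CPM (SD, n = 3 each). In edgeR the log2 fold change, 0.44, was about as large as its standard error, 0.39 (adjusted p = 0.43). The 95% interval, -0.40 to 1.28, includes 0 as well as a 2-fold rise. Without Na2SeO3 library 3 the log2 fold change was -0.08 (adjusted p = 0.91, edgeR), so the direction rests on that library. Of the 326 rat miRNAs tested, 91.1% had a smaller standard error.

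The 2 capped-hairpin miRNAs can be set against each other within a library, which removes the scaling. The log2 CPM of miR-484 minus that of miR-320-3p was -4.03, -4.78, and -4.39 in the control libraries and -4.20, -4.59, and -3.25 in the Na2SeO3 libraries. The groups overlapped, and the first and second Na2SeO3 libraries lay inside the control range. The mean differences were -4.40 ± 0.37 and -4.01 ± 0.69 (SD, n = 3 each), 0.39 apart on the log2 scale (two-sided exact permutation test, p = 0.5, where the smallest p that 3 against 3 libraries allow is 0.1). This value rested on single libraries: it was 0.0066 without Na2SeO3 library 3, 0.20 without control library 2, and 0.68 without Na2SeO3 library 2.

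The mirtrons were at the lower edge of detection. miR-1224, from an intron of Vwa5b2, was counted 23, 17, and 8 times in the control libraries and 7, 10, and 5 times in the Na2SeO3 libraries. These were 7.94, 8.79, and 5.17 CPM and 10.2, 9.07, and 5.50 CPM, with 1 low library in each group. The group means, 7.30 ± 1.89 and 8.25 ± 2.45 CPM (SD, n = 3 each), differed by less than the SD of either group. The log2 fold change in edgeR was 0.13, with 0.44 as its standard error (adjusted p = 0.84), and it was -0.03 without control library 3, -0.04 without Na2SeO3 library 1, and 0.35 without Na2SeO3 library 3. The 95% interval of -0.82 to 1.08 leaves room for a fall to 0.568-fold and for a rise to 2.12-fold. It was 319th of the 326 rat miRNAs tested by mean level, between rno-miR-98-3p, which was called higher (log2 fold change 1.60), and rno-miR-1839-3p.

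miR-877, from an intron of Abcf1, was counted 9, 0, and 2 times in the control libraries and 6, 4, and 2 times in the Na2SeO3 libraries. As levels these were 3.11, 0, and 1.29 CPM and 8.73, 3.63, and 2.20 CPM, and the third Na2SeO3 library lay inside the control range. The 0 of control library 2 allows up to 1.55 CPM, which is what 3 counts are worth there. Summed over each group, 11 reads gave 1.72 CPM in the control group (95% exact Poisson interval 0.861 to 3.09) and 12 reads gave 4.45 CPM in the Na2SeO3 group (2.30 to 7.76), and these intervals, which cover counting error only, overlap. It was too low for the main test. Without a filter on low counts, its log2 fold change was 1.49 (edgeR, adjusted p = 0.47 over 725 names), and it moved between 0.80 without Na2SeO3 library 1 and 2.72 without control library 1. No difference was detectable at this depth, and the 95% interval of the log2 fold change, -1.13 to 4.11, includes both falls and rises.

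**Figure D3:**
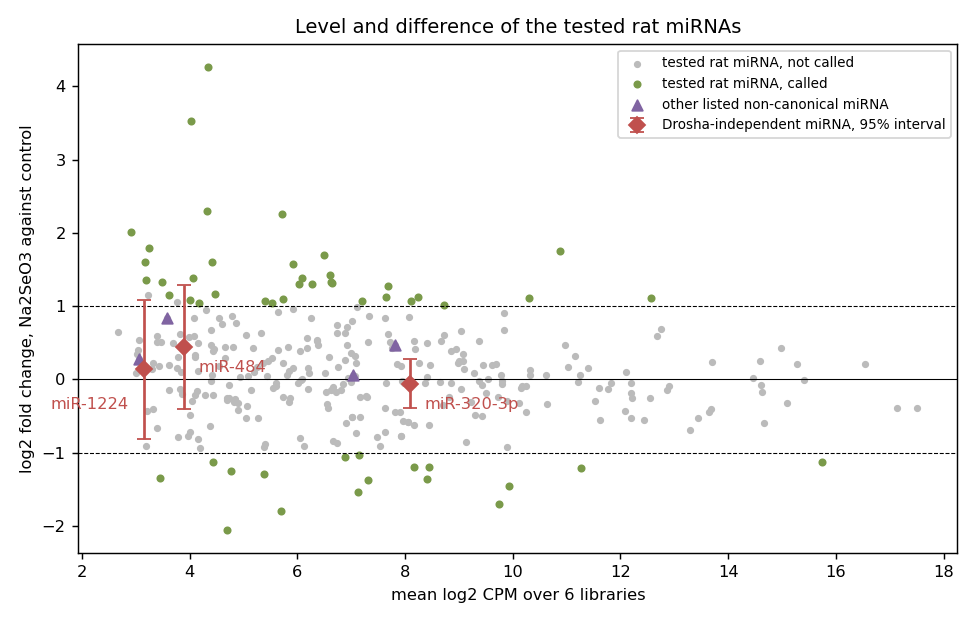
Mean log2 CPM over 6 libraries (x axis) and log2 fold change of Na2SeO3 against control (y axis) for the 326 rat miRNAs tested; green points were called, purple triangles are 4 other listed non-canonical miRNAs, and dashed lines mark the fold change threshold. The 3 Drosha-independent miRNAs (diamonds, bars are 95% intervals) lie at -0.06, 0.13, and 0.44, inside the threshold, and the interval is narrowest for miR-320-3p.

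Other rat miRNAs of similar abundance, whatever their route, were taken as the comparison. Those within 0.5 of miR-320-3p in mean log2 CPM numbered 36 and had a median log2 fold change of 0.00 (middle 50% of values from -0.58 to 0.50). Of these, 14 lay below miR-320-3p and 22 above it, and 7 (19.4%) were called. The 44 rat miRNAs near miR-484 had a median of 0.30, with 24 below and 20 above it. Next to it in abundance stood miR-3085, with a log2 fold change of 0.45 (edgeR, adjusted p = 0.44), and miR-223-3p, at -0.19 (adjusted p = 0.74). The 27 near miR-1224 had a median of 0.41, with 7 below and 20 above it. Rows this low sit near the filter on low counts. That filter asks for a minimum level in 3 libraries, so a row can pass through 1 group alone. The part of this in the medians near miR-484 and miR-1224 was not tested. The median over all 341 tested was 0.08. The 3 Drosha-independent miRNAs thus lay within the spread of their neighbours, 1 above its neighbours' median and 2 below. These counts are descriptive, since the neighbouring rows are not replicates and no test of the list was made.

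miR-484 and miR-1224 are both rich in G and C. The 31 tested rat miRNAs with at least 60% GC had a median log2 fold change of 0.31, against 0.06 for the 196 with 40% to below 60% and 0.03 for the 69 below 40%. The log2 fold change was 0.44 for miR-484 and 0.13 for miR-1224. The part of base composition in these values was not tested.

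As a share of all rat miRNA reads, the 5 rows together were counted 291, 301, and 248 times per 1000000 reads in the control libraries and 335, 313, and 307 times in the Na2SeO3 libraries. The means were 280.1 ± 28.5 and 318 ± 14.98 per 1000000 (SD, n = 3 each), and the groups did not overlap, with control library 2 at 301 just below Na2SeO3 library 3 at 307. The share depends on what the rest of the library does. The 10 most abundant rat miRNAs, led by miR-148a-3p, miR-99a-5p, and miR-182, took 70.2% to 72.2% of rat reads in the control libraries and 67.0% to 68.6% in the Na2SeO3 libraries. With those 10 left out of the total, the 5 rows stood at 982, 1012, and 892 per 1000000 in the control libraries and 1037, 948, and 979 in the Na2SeO3 libraries, and the groups overlapped. These values come almost wholly from miR-320-3p, which made up 88.5% to 94.1% of the reads of the 5 rows.

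**Figure D4:**
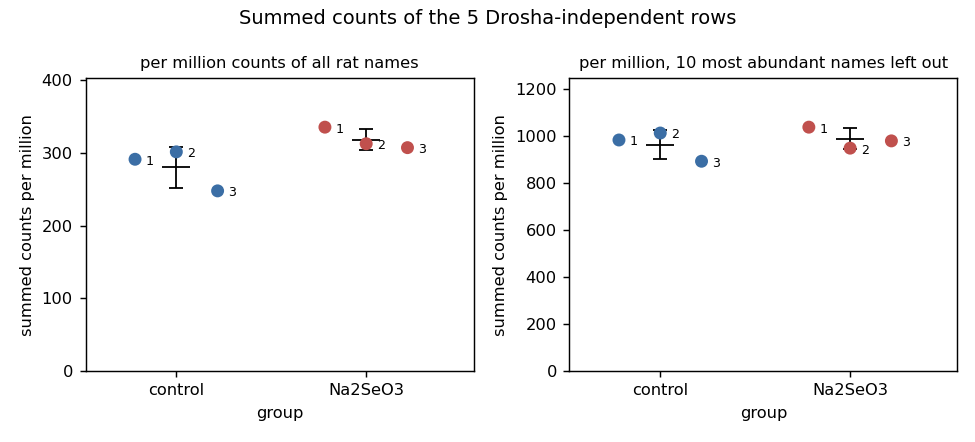
Summed counts of the 5 Drosha-independent rows per 1000000 rat miRNA reads (y axes from 0), with all rat names in the total (left) and with the 10 most abundant left out (right); points are libraries with their replicate number, and bars are the mean and SD (n = 3). The groups are apart by a small gap on the left (301 against 307) and overlap on the right.

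Other miRNAs with unusual routes were listed by name for comparison. The first list held rows of miR-702, a mirtron of Plod3, miR-1839, listed as derived from a small nucleolar RNA, miR-668, and miR-3102. Of its 6 rows, 5 had at least 1 count and 3 passed the filter on low counts. Of these 3, 0 were called in either direction, beside 16.4% of all miRNAs tested, and their median log2 fold change was 0.47. miR-1839-5p, the most abundant, averaged 193 ± 37.7 CPM in the control group and 266.5 ± 65.3 CPM in the Na2SeO3 group (SD, n = 3 each). Its log2 fold change was 0.47, with an adjusted p of 0.11 in edgeR. miR-1839-3p was at 0.28 on the same scale, with an adjusted p of 0.75 in edgeR. miR-3102 was too low for the main test, with 2, 0, and 1 counts in the control libraries and 0, 2, and 1 in the Na2SeO3 libraries.

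miR-668, whose gene lies between Mir134 and Mir485 in the Dlk1-Dio3 cluster, was at 10.01, 8.79, and 5.17 CPM in the control libraries and 23.3, 10.9, and 12.1 CPM in the Na2SeO3 libraries. All 3 Na2SeO3 libraries lay above the control libraries, but by less than the 0.907 CPM that 1 read was worth in Na2SeO3 library 2. The log2 fold change was 0.84 with an adjusted p of 0.13 in edgeR. miR-668 was 1 of the 3 tested rows of the list without overlap, beside 46.3% of all miRNAs tested. Beside it in the cluster, miR-134-5p was at 0.87, miR-485-5p at 0.64, and miR-485-3p at 0.10 on the same scale. The part of the cluster in the value of miR-668 was not tested. The mirtron product miR-702-3p was too low for the main test, with 6, 6, and 8 counts in the control libraries and 8, 10, and 5 in the Na2SeO3 libraries. Summed over each group this was 3.14 CPM (95% exact Poisson interval 1.92 to 4.84) and 8.52 CPM (5.40 to 12.8). These intervals, which cover counting error only, did not overlap. By library the levels were 2.07, 3.10, and 5.17 CPM and 11.6, 9.07, and 5.50 CPM, so that the groups were apart by less than the 1.10 CPM that 1 read was worth in Na2SeO3 library 3. Without a filter on low counts its log2 fold change was 1.28, with an adjusted p of 0.22 in edgeR. Its other arm, miR-702-5p, which begins at base 1 of its hairpin as miR-877 and miR-1224 do, was not counted in any library, which allows up to 1.04 to 1.94 CPM in the control libraries and 2.72 to 4.36 CPM in the Na2SeO3 libraries.

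A further pair of miRNAs bears on single steps of the pathway. miR-451-5p needs Drosha but is cut by Argonaute 2 in place of Dicer, the reverse of the miRNAs above, and it is abundant in red blood cells. It was at 126, 140.0, and 117 CPM in the control libraries and 113.5, 162, and 123 CPM in the Na2SeO3 libraries, and the groups overlapped. Its fitted difference was 0.06 on the log2 scale, with 0.19 as its standard error (edgeR, adjusted p = 0.83). miR-1306 comes from a hairpin within the transcript of Dgcr8, which the Microprocessor cuts to limit its own level. Its 3p arm was counted 16, 11, and 3 times in the control libraries and 4, 1, and 7 times in the Na2SeO3 libraries, or 4.70 CPM (3.17 to 6.71) and 4.45 CPM (2.30 to 7.76) over each group. Its 5p arm summed to 2.98 CPM (1.79 to 4.65) and 3.33 CPM (1.52 to 6.33). These Poisson intervals overlap, and they cover counting error only. Both arms were below the filter of the main test. Without a filter their log2 fold changes were -0.01 for the 3p arm and -0.04 for the 5p arm (edgeR, adjusted p = 0.99 and 0.98).

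The rat miRNAs whose levels ran most like those of the Drosha-independent miRNAs over the 6 libraries were found by Pearson's r of log2 CPM, given here as a description. For miR-320-3p they were miR-224-5p (r = 0.90), miR-23b-3p (0.82), and miR-361-3p (0.81). For miR-484 they were miR-708-3p (0.90), miR-3559-5p (0.86), and let-7b-3p (0.84). For miR-1224 they were miR-28-5p (0.93), miR-191a-5p (0.90), and miR-330-3p (0.90). With 6 libraries and 325 candidates each, values of this size say little about any pair, and the 9 names were all different. The adjusted p-values of the 9 ranged from 0.12 to 0.97 (edgeR), so none of them was called.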

How the data were processed

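Small RNA libraries of 3 control and 3 Na2SeO3 lenses were compared, with groups taken from the sample titles. Per the methods, the authors used Cutadapt and Fqtrim for filtering, FastQC for quality, and miRDeep (with HISAT2 also named) for comparison with the Ensembl rat genome. The authors deposited unnormalized read counts per miRNA name. Versions and genome build are not given in the sources used here, so no coordinates are printed.

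Counts were filtered with filterByExpr (minimum count 10), scaled with TMM, and tested with edgeR's quasi-likelihood test and Benjamini-Hochberg adjustment over all 341 names tested, at the methods' thresholds (adjusted p 0.05, absolute log2 fold change 1). log2 CPM used a prior count of 2. Standard errors were derived from each F statistic, and 3 counts were taken as the floor of a library. Counted miRNA reads ranged from 663096 to 2829903 per library. The procedure was also run on counts simulated for the rows past the filter. The outcome is not given here, and rows below the filter were not covered. Chi-square per degree of freedom between libraries of a group was at least 27.9, so none was taken as a copy. Same-numbered libraries come from different rats, and their deviations correlated at -0.17, -0.18, and -0.26, so the numbers were not taken as pairs.

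The members, lists, and rules were chosen with earlier results of these data known. The miRNAs named were the rows matching the name rule, listed non-canonical miRNAs, the 3 most alike by correlation, and the neighbours in mean level. Markers and miRNAs named for a shared seed, hairpin ends, or abundance stand outside that rule. Alternatives were other scalings, filters, and tests, a replicate block, and leaving out each library. Tools were R 4.3.3, edgeR 4.0.16, DESeq2 1.42.0, Python 3.11.15, scipy 1.17.1, and RNAfold 2.7.2. Sequences were copied from RefSeq (GRCr8).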

Additional observations from a re-analysis of the deposited data

How the results depend on the processing

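No alternative called miR-320-3p, miR-484, miR-1224, or miR-877. For the first 3, the log2 fold changes ranged from -0.15 to 0.13, -0.08 to 0.77, and -0.04 to 0.35 over 14, 14, and 13 alternatives, with adjusted p-values of 0.53 to 0.97, 0.17 to 0.91, and 0.61 to 0.98. Values this near 0 changed sign in places: miR-320-3p was at 0.13 with library size only, and leaving out 1 library moved it between -0.15 and 0.015 (positive without control library 2). miR-484 ranged from -0.084 (without Na2SeO3 library 3) to 0.77 and miR-1224 from -0.041 (without Na2SeO3 library 1) to 0.35, with -0.026 without control library 3. miR-877 could be fitted only without a filter (1.49), and 12 alternatives on that basis gave 0.80 to 2.72 with adjusted p-values of 0.23 to 0.76. With at least 10 counts in every library, miR-1224 could not be tested. With the replicate number as a block, a pairing the data do not bear out, the values were -0.06, 0.40, and 0.17, and 49 miRNAs were called in all. The total number called was 56, 42 to 63 under the other alternatives, and 118 at an adjusted p of 0.05 alone, where 0 of the 3 passed as well. The summed share differed by 38.3 per 1000000 between groups, and by 22.1 to 48.9 with a library left out. Below about 10 reads per library, as for miR-877, depth limits what can be seen.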
